A study of Mus musculus with 8 samples.

Results

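Collagen and laminin genes encode the structural proteins of the extracellular matrix, and they were followed here in testes of juvenile C57BL/6 mice that lack Ip6k1 (knockout, KO, Ip6k1-/-) or carry both copies of it (wild type, WT, Ip6k1+/+). Ip6k1 encodes inositol hexakisphosphate kinase 1, an enzyme that makes an inositol pyrophosphate. Members were chosen by name alone: every non-control probe whose gene name in the scanner files has the form of a collagen chain, such as Col1a1, or of a laminin chain, such as Lama1. This gave 80 probes of 54 genes, among 34964 genes on the array, with 43 collagen genes and 11 laminin genes. The 4 groups were KO at 26 dpp (days postpartum, after weaning), WT at 26 dpp, KO at 17 dpp (before weaning) and WT at 17 dpp, each with 2 one-colour Agilent arrays of whole testis RNA that the labels call biological replicates. KO and WT mice were littermates from crosses of heterozygotes. The part of Ip6k1 that was removed is not given in the sources used here.

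A collagen molecule is a rope of alpha chains wound around each other, which is possible because glycine recurs at a fixed spacing along each chain. A laminin is a cross-shaped trimer with an alpha, a beta and a gamma chain. In the testis, laminins and collagen IV networks form the basement membrane under the seminiferous epithelium, which Sertoli cells and peritubular myoid cells lay down together, and fibrillar collagens such as I and III fill the wall of the tubule and the interstitium between tubules.

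The glycine spacing can be read in the probes themselves. A glycine codon is GG followed by any base, and in the collagen helix it returns after 9 bases. Among the 80 member probes, each of 60 bases, 3 held at least 5 such codons in phase, against 29 of all 55681 probes on the array (0.0521%). They are shown because they read the helix-coding part of the transcript. For Col16a1 and Col25a1 a brighter probe stands for the gene below, and the helix probe is given beside it. Capitals mark the glycine codons in phase, sequences are those of the files, 5′ to 3′, and coordinates are on mm9, plus strand.

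Col15a1, chr4:47283786-47283845: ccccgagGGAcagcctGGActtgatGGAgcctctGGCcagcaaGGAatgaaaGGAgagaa

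Col16a1, chr4:129756457-129756516: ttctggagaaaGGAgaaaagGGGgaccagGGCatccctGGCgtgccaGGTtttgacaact

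Col25a1, chr3:130270497-130270556: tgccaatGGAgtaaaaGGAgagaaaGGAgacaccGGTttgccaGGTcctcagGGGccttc

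Col4a1 and Col4a2, which encode the chains of the most widespread collagen IV, are known to lie head to head and to be transcribed in opposite directions out of a shared promoter region. Their promoter windows are printed because both genes fell together with age in WT. Each window runs from 250 bases before to 50 bases after the RefSeq start on GRCm38.p6. The windows share 78 bases, read on opposite strands, and the starts lie 21 bases apart. With these starts each gene begins inside the other's transcript, so the annotated 5′ ends overlap. The parts of the windows before the starts share no bases with each other. Capitals mark matches on either strand to GGGCGG (or CCGCCC) and to CCAAT (or ATTGG).

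Col4a1, chr8:11312777-11313076, minus strand: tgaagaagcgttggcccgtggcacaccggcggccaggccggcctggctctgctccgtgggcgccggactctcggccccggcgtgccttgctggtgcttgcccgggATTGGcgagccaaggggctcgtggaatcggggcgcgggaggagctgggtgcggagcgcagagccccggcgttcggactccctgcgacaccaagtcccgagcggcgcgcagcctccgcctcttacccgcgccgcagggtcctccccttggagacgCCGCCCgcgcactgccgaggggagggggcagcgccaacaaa

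Col4a2, chr8:11312555-11312854, plus strand: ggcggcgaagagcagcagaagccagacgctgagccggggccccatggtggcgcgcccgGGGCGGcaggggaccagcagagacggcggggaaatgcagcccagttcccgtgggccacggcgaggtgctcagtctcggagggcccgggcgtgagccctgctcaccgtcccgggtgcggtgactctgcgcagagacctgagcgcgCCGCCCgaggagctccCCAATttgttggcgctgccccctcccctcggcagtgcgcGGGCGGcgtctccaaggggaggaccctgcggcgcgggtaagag

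The Col4a1 window holds 1 match to GGGCGG and 1 to CCAAT, and the Col4a2 window holds 3 and 1. The GGGCGG match of Col4a1 and the last of Col4a2 are the same site, read on opposite strands in the shared bases. GGGCGG was found in 35.7% and CCAAT in 37.4% of all 32851 promoter windows of the same length. A window was matched for 40 of the 54 member genes, of which 4 had a pair of windows, and 25 of the 40 held GGGCGG and 14 held CCAAT in a window. Counted by window, as for all promoters, GGGCGG was in 26 of 44 member windows (59.1%) and CCAAT in 14 (31.8%). A match describes these letters and is no evidence of a bound factor.

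Values below are log2 of the processed spot signal minus log2 of the array's 75th percentile, and where several probes of a gene were kept, the brightest on average stands for it. A value of 0 is therefore the 75th percentile of that array, and values of different genes are not compared, because probes differ in brightness. Of the 54 genes, 49 (38 collagens and 11 laminins) had a probe that cleared background in both replicates of some group and were tested, and 45 of these were well above background on all 8 arrays. Col6a6, Col10a1, Col13a1, Col19a1 and Col28a1 did not reach that level. Differences were tested with limma over 26586 genes, and a gene is said to rise or fall only with a Benjamini-Hochberg adjusted p under 0.05. All 8 arrays shared a slide on which each age filled a row and each genotype a pair of columns, so position on the slide and group cannot be told apart.

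Knockout replicate 2 at 26 dpp stood apart from the other arrays of its age. Across genes its correlation was 0.917 to 0.948 with 17 dpp arrays, against 0.838 to 0.873 with the remaining 26 dpp arrays. The median of 9 spermatid markers was 5.81 in replicate 1 and −3.85 in replicate 2 of KO at 26 dpp, against 5.27 and 6.39 in WT at 26 dpp and −4.99 to −4.62 in the arrays of 17 dpp. These values of replicate 2 go against its labelled age, and whether the label is right was not tested. Of the 49 tested members, 5 lay within the range of the 17 dpp arrays in replicate 2. Its spike-in median was 11.97 (log2), against 9.40 to 9.88 in the other arrays of 26 dpp, and its 75th percentile signal was 480 against 638 to 691. It also had the lowest share of probes above background (58.8%) and the most outlier spots (200) of all arrays. The part of RNA input or array quality was not tested. Each KO mean of 26 dpp below holds this array unless stated. The markers of the labelled tissue were measured: all 10 Sertoli and all 9 peritubular myoid markers were tested and all were well above background on every array of 17 dpp. Ip6k1, the targeted gene (chr9:107950832-107950891 on mm9), read 1.41 and 1.31 in KO against 2.79 and 2.77 in WT at 26 dpp, and 1.37 and 1.5 in KO against 2.20 and 2.30 in WT at 17 dpp. It was lower in each KO array than in each WT array, while its adjusted p in limma was 0.516 at 26 dpp and 1 at 17 dpp, and whether the probe lies in the removed part is not known.

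Relative to the array's 75th percentile, most collagen and laminin genes were lower at 26 dpp than at 17 dpp in WT testes. The unscaled log2 median of the spike-in control probes was also lower, at 9.88 and 9.40 in WT at 26 dpp against 10.76 and 10.99 in WT at 17 dpp. The spike-ins were not used for scaling, and whether the genes differ relative to them was not tested. Of 49 tested genes, 27 fell and 4 rose (limma, adjusted p under 0.05), 63.3% of them, where 45% of all genes passed, 26.1% downward and 18.9% upward. The median difference of the members was −1.38, against −0.46 over all genes. In 38 of the 49 both arrays of 26 dpp lay below both of 17 dpp, 77.6% of the members and 56% of all genes, and in 6 they lay above, 12.2% and 32%. In a whole testis, fewer cells of a type and less RNA per cell cannot be told apart. An unadjusted p under 0.05 was reached by 35 members, where 57.3% of all genes reached it. Without KO replicate 2 at 26 dpp, 34 members fell and 6 rose, where 69.2% of all genes passed, 43.9% downward and 25.3% upward. The calls needed both arrays of each WT group: 0 members passed without WT replicate 1 or 2 at 17 dpp or without WT replicate 1 or 2 at 26 dpp, where 0% to 0.722% of all genes passed, and then 32, 25, 35 and 26 members had an unadjusted p under 0.05. Without scaling between arrays 21 of the 31 calls remained, and those of Col4a3, Lamc3, Col1a2, Col5a1, Col5a3, Col6a1, Col7a1, Col9a2, Col15a1 and Col22a1 were lost. Without the filter on dim probes 27 remained, and those of Col5a3, Col6a1, Col9a2 and Col22a1 were lost.

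**Figure D1:**
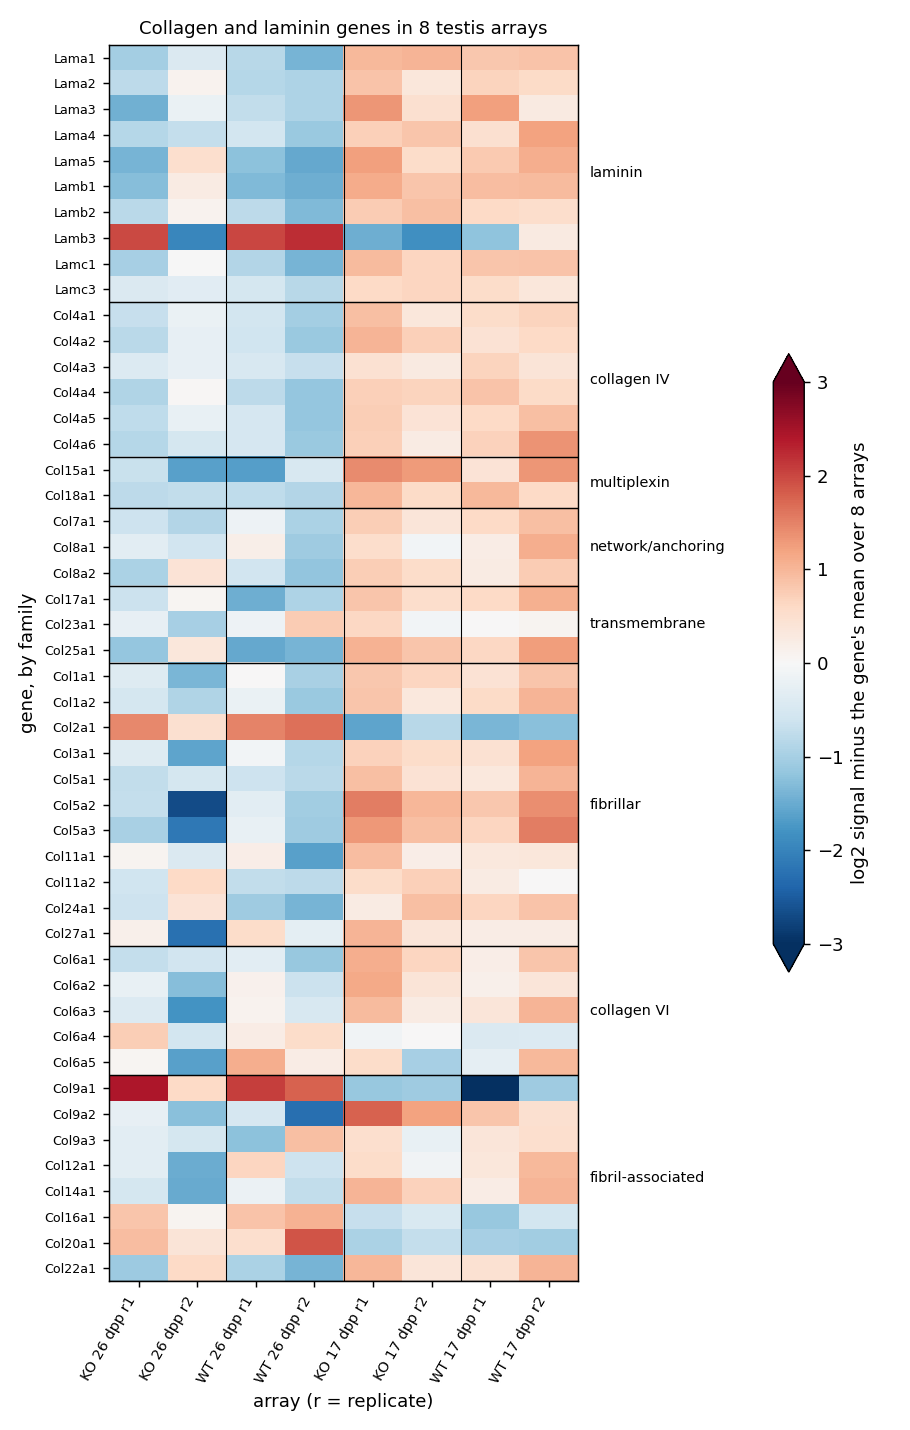
Log2 signal of 48 tested genes (rows, grouped by family) in 8 arrays (columns), as the difference from the gene's mean over the 8 arrays, with red above and blue below that mean. Most rows are blue at 26 dpp and red at 17 dpp, Col2a1, Lamb3, Col9a1, Col16a1 and Col20a1 run the other way, and KO replicate 2 at 26 dpp differs from the other arrays of its age in many rows.

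Laminin chains fell in WT testes with age. Of 11 chains 9 passed, all downward, with a median difference of −1.68 over the 11. Among the alpha chains, which carry the sites bound by cell receptors, Lama1 (chr17:68171924-68171983 on mm9) encodes the chain of the first laminin described. It read 2.51 and 1.96 in WT at 26 dpp against 4.17 and 4.21 in WT at 17 dpp, a difference of −1.95 (SE 0.31, limma adjusted p = 0.0105). The 26 dpp arrays lay well below the 17 dpp arrays, and the same held for Lama5 (chr2:179911079-179911138), a chain of many adult epithelial basement membranes. Lama5 read 0.28 and −0.03 in WT at 26 dpp against 2.30 and 2.60 in WT at 17 dpp, 5.01-fold lower (adjusted p = 0.0313). Lama2, the chain of muscle basement membranes whose loss causes muscular dystrophy, fell by 1.51 on the log2 scale (adjusted p = 0.0244), and Lama4, a chain of vessel walls, fell by 1.68 (adjusted p = 0.0162). Lama3, an epithelial anchoring chain, differed by −1.58 without passing (adjusted p = 0.0593), and passed without KO replicate 2 at 26 dpp (adjusted p = 0.0219).

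Lamb1 (chr12:32014411-32014470), the beta chain of many embryonic and adult laminins, had a tight spread in WT, while the KO replicates of 26 dpp, which enter the SE, lay apart. It read 2.69 and 2.55 in WT at 26 dpp against 4.95 and 4.96 in WT at 17 dpp, a fall of 5.04-fold (SE 0.49 on the log2 scale, adjusted p = 0.0182). Lamb2, the beta chain of the kidney filter and of the neuromuscular junction, read 0.68 and 0.16 in WT at 26 dpp against 2.07 and 2.01 in WT at 17 dpp (difference −1.62, adjusted p = 0.0217). For both genes the ages were well separated. Lamb3 (chr1:195170009-195170068), a beta chain of the laminin that anchors skin epithelium, lay on the other side. It read −0.92 and −0.70 in WT at 26 dpp against −4.13 and −2.65 in WT at 17 dpp, a difference of 2.58 that did not pass with all arrays (adjusted p = 0.124) and passed without KO replicate 2 at 26 dpp (adjusted p = 0.00723).

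Among the gamma chains, Lamc1 (chr1:155066156-155066215), the common gamma chain, read 1.15 and 0.65 in WT at 26 dpp against 2.87 and 2.89 in WT at 17 dpp, 3.95-fold lower (adjusted p = 0.0157). Both WT arrays of 26 dpp lay well below those of 17 dpp. Lamc3, a gamma chain described in nerves and in the testis among other tissues, fell by 1.11 on the log2 scale (adjusted p = 0.0184).

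All 6 collagen IV chains fell in WT, with a median difference of −1.49. Col4a1 (chr8:11199009-11199068) read 0.73 and 0.25 in WT at 26 dpp against 1.82 and 1.96 in WT at 17 dpp, a difference of −1.40 (SE 0.33, adjusted p = 0.0238). Col4a2 (chr8:11448840-11448899), its head-to-head neighbour, read −0.02 and −0.55 against 1.01 and 1.18, a difference of −1.38 (adjusted p = 0.0227). In KO the pair, whose printed windows overlap, differed by −1.06 for Col4a1 (adjusted p = 0.0793) and −1.39 for Col4a2 (adjusted p = 0.0392). The other chains are those of specialised membranes, whose loss causes Alport syndrome of the kidney in the case of Col4a3, Col4a4 and Col4a5. Col4a3 fell by 1.11, Col4a4 by 1.68, Col4a5 by 1.58 and Col4a6 by 1.82 on the log2 scale, with adjusted p between 0.0169 and 0.0195. Col4a4 was measured by 3 kept probes, which differed by −1.68, −1.64 and −1.25 between the WT ages. A second kept probe of Col4a6 differed by −0.59 (adjusted p = 0.259 in the fit over probes).

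Both multiplexins, collagens of basement membrane zones that carry long side chains of sugar, fell in WT. Col18a1 (chr10:76514926-76514985), the source of the fragment endostatin, read 2.28 and 2.17 in WT at 26 dpp against 4.0 and 3.65 in WT at 17 dpp, 3.03-fold lower (adjusted p = 0.0109). Col15a1, measured by the printed helix probe, was not well above background on either WT array at 26 dpp. Its level there was lower than at 17 dpp by at least 1.40-fold (adjusted p = 0.0353), and its 2 other probes were left out as dim. Of 3 transmembrane collagens, Col17a1, the hemidesmosome collagen of skin, fell by 2.03 on the log2 scale (adjusted p = 0.013) and Col25a1, a neuronal collagen found in amyloid plaques, by 2.41 (adjusted p = 0.0185). Of 3 network and anchoring collagens, Col7a1, which forms anchoring fibrils, fell by 1.29 (adjusted p = 0.031), while Col8a2 differed by −1.38 (adjusted p = 0.065) and Col8a1 by −1.10 (adjusted p = 0.117).

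Fibrillar collagens lay below 0 as often as laminins, but fewer passed. Of 11 genes 10 lay below 0 in WT (9 without scaling between arrays, where Col27a1 turned), as did 10 of 11 laminins. In 9 of the 11 both arrays of 26 dpp lay below both of 17 dpp, where 56% of all genes did. By the test 4 fell and 1 rose, where 26.1% of all genes fell and 18.9% rose. Col1a1, the main chain of collagen I (chr11:94813115-94813174), read 5.59 and 4.6 in WT at 26 dpp against 6.02 and 6.41 in WT at 17 dpp, a difference of −1.12 that did not pass (SE 0.47, adjusted p = 0.0908). Col3a1, which forms mixed fibrils with collagen I, read 5.01 and 4.23 against 5.53 and 6.28 (difference −1.29, adjusted p = 0.081). In both genes the WT replicates of 26 dpp lay far apart, with the ages not overlapping. Col1a2, the second chain of collagen I, fell by 1.45 on the log2 scale (SE 0.40, adjusted p = 0.0333). The collagen V chains, which start and limit fibrils, differed by −1.38 for Col5a1 (adjusted p = 0.0242), −1.73 for Col5a3 (adjusted p = 0.0434) and −1.79 for Col5a2 (adjusted p = 0.0724). Col24a1, a minor fibrillar collagen of bone, fell by 1.98 (adjusted p = 0.0187). Without KO replicate 2 at 26 dpp, 8 of the 11 fell, with Col1a1 at adjusted p = 0.0396 and Col3a1 at adjusted p = 0.0258.

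Col2a1, the collagen of cartilage (chr15:97806071-97806130), rose with age. It read 2.34 and 2.50 in WT at 26 dpp against −0.52 and −0.40 in WT at 17 dpp, 7.36-fold higher (SE 0.41 on the log2 scale, adjusted p = 0.00877), and it had the lowest adjusted p of all members. Another 3 genes rose, all fibril-associated collagens, which decorate the surface of fibrils or link them to other matrix. Col16a1 read 4.66 and 4.85 in WT at 26 dpp against 2.67 and 3.24 in WT at 17 dpp, 3.49-fold higher (adjusted p = 0.0151). A second kept probe differed by 1.30. The printed helix probe was not well above background in WT at 17 dpp and was higher at 26 dpp by at least 3.95-fold, with an adjusted p of 0.0526 in the fit over probes. Col20a1 read 0.18 and 1.56 in WT at 26 dpp against −1.33 and −1.35 in WT at 17 dpp (difference 2.21, adjusted p = 0.0192). In all of these genes the 26 dpp arrays lay above the 17 dpp arrays.

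Col9a1, another cartilage collagen, rose by its brighter probe only. That probe (chr1:24259125-24259184) read −2.17 and −2.48 in WT at 26 dpp against −7.86 and −5.32 in WT at 17 dpp, where 1 of 2 arrays was well above background (difference 4.26, adjusted p = 0.0196). A second kept probe (chr1:24201545-24201604) was well above background on both WT arrays of 17 dpp and on no other array. It was lower in WT at 26 dpp by at least 1.81-fold, with an adjusted p of 0.133 in the fit over probes. Of its partner chains, Col9a2 fell by 2.04 on the log2 scale (adjusted p = 0.0447) and Col9a3 differed by −0.61. Kept probes also gave unlike differences for Col23a1 (0.25 and −1.83 in WT) and for Col25a1 (−2.41, and 0.04 for the printed helix probe), and they differed in size for Col6a2 (−0.51 and −1.69). Which exons each probe covers was not determined here. Among the other fibril-associated collagens, Col22a1 fell by 1.91 (adjusted p = 0.0433), and Col12a1 and Col14a1 differed by −0.65 and −1.08 without passing (adjusted p = 0.39 and 0.0953).

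Collagen VI, which forms beaded filaments near cell surfaces, had the family median nearest to 0 in WT by the brightest probe of each gene. Of 5 tested chains Col6a1 fell, by 1.23 on the log2 scale (adjusted p = 0.0441, and 0.124 without scaling between arrays). The median was −0.51, against −0.46 over all genes. That median is the value of Col6a2, whose second kept probe differed by −1.69, so the rank of the family depends on the probe chosen. Col6a3 differed by −0.87, Col6a4 by 0.81 and Col6a5 by 0.31, with adjusted p between 0.161 and 0.759.

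**Figure D2:**
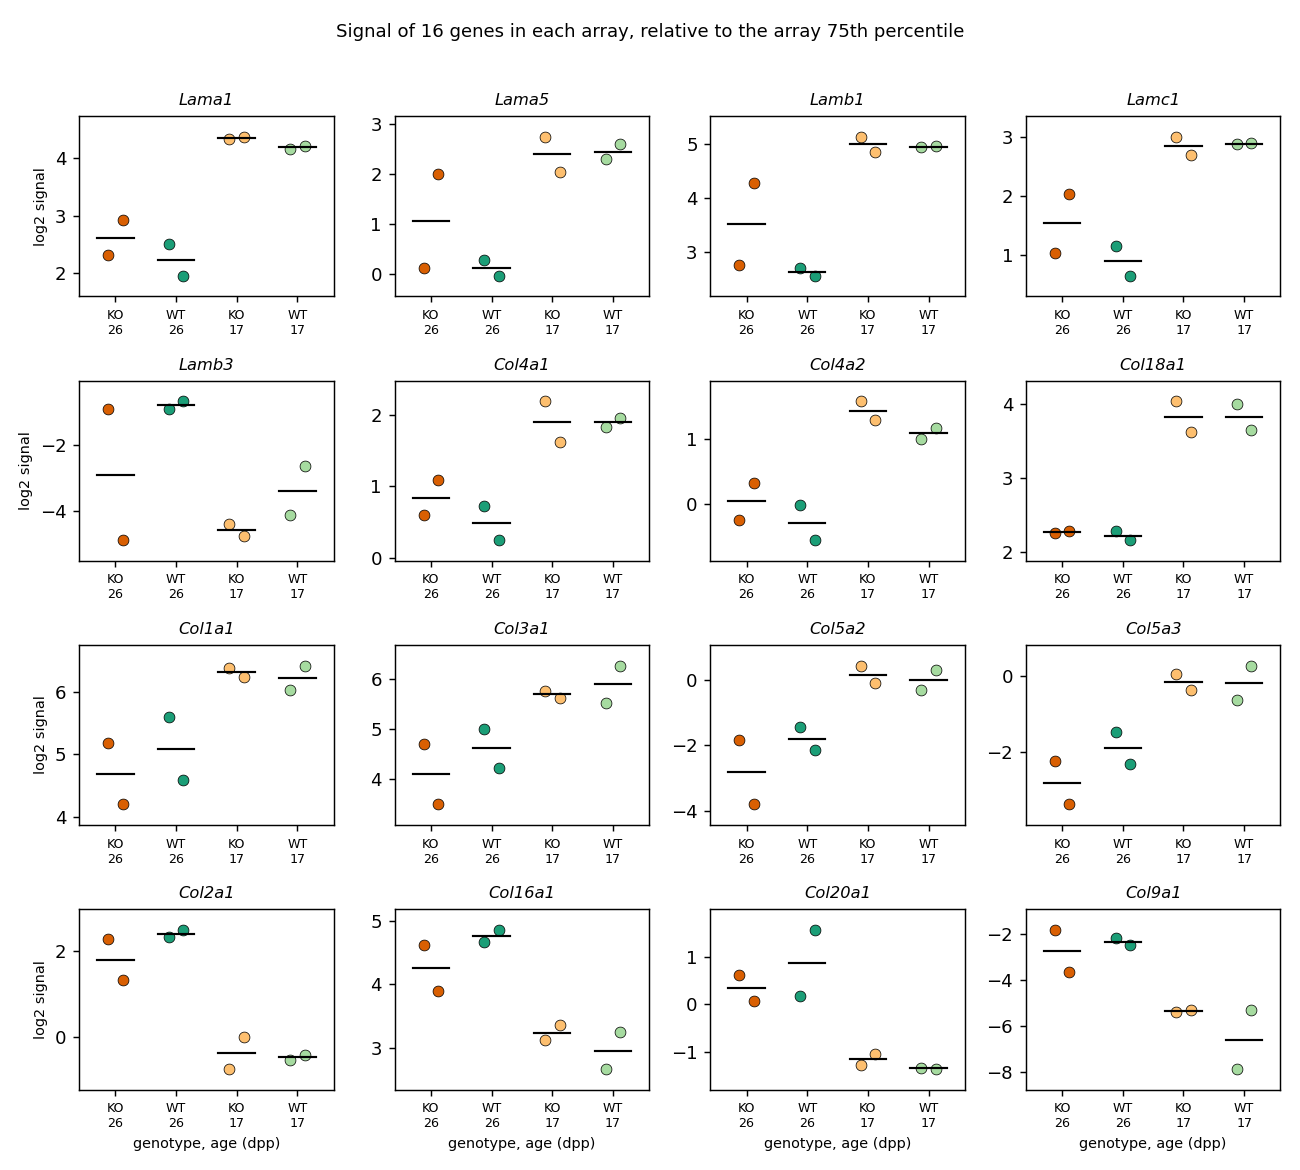
Log2 signal relative to the array's 75th percentile for 16 genes, with 1 point per array, a line at the mean of each group of 2, and groups given as genotype and age in dpp. In WT, the laminin genes other than Lamb3 and the collagen IV genes drawn lie lower at 26 dpp. Lamb3, Col2a1, Col16a1, Col20a1 and Col9a1 (by its brighter probe) lie higher. The KO replicates of 26 dpp lie apart for Lama5, Lamb1 and Lamb3.

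The genes that work with collagens and laminins were read from lists that were drawn up with earlier results of these data known. Beside the counts below, 26.1% of all genes fell and 18.9% rose in WT with age. Of 10 partners of the basement membrane 9 fell in WT at 26 dpp against 17 dpp (median −1.80), among them Nid1, the nidogen that links laminin to collagen IV (−1.80, adjusted p = 0.0206), Hspg2, which encodes perlecan (−1.81, adjusted p = 0.0238), Agrn, which encodes agrin (−2.05, adjusted p = 0.0252), and Fbln2, a fibulin (−2.73, adjusted p = 0.0169). Of 14 receptors 8 fell and 1 rose. Ddr2 and Ddr1, receptor kinases for collagen, fell by 2.46 and 1.73 on the log2 scale (adjusted p = 0.00658 and 0.00752), and Itgb1, the shared integrin beta chain, fell by 1.78 (adjusted p = 0.0287). Itga2, the alpha chain of a collagen-binding integrin, was not well above background on either WT array at 17 dpp and was at least 8.39-fold higher at 26 dpp (adjusted p = 0.0162).

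Of 14 collagen modifying enzymes and chaperones 9 fell in WT, including Serpinh1, the collagen chaperone of the endoplasmic reticulum (−1.57, adjusted p = 0.0135), Plod2, a lysyl hydroxylase (−1.63, adjusted p = 0.0107), and Colgalt1, which adds galactose to collagen (−1.96, adjusted p = 0.0169). P3h1, a prolyl hydroxylase, differed by 0.18 (adjusted p = 0.503). Of 11 genes for propeptide removal and crosslinking 5 fell, including Bmp1, the procollagen C-proteinase (−2.40, adjusted p = 0.0169), and of 9 matrix proteases and their inhibitors 5 fell, with Mmp11 at −2.74 (adjusted p = 0.00573). Markers of cell types of the testis were also read in WT, where 26.1% of all genes fell and 18.9% rose. Of 10 Sertoli markers 6 fell (median −1.79). Of 9 peritubular myoid markers 7 fell (median −1.37, highest difference 2.59), and of 7 endothelial markers 6 fell (median −1.27). Of 6 Leydig markers 1 rose (median 0.86) and of 7 macrophage markers 2 rose (median −0.33), and none of either list fell. All 9 spermatid markers rose (median 10.4). The summed Sertoli marker signal was 7.78 and 7.63 (log2) in WT at 26 dpp against 8.90 and 8.80 in WT at 17 dpp, and the summed myoid signal was 6.39 and 6.22 against 7.44 and 7.69. Markers of tissues outside the testis were also lower: of 8 epididymis markers 6 fell and 1 rose in WT (median −4.38), with array medians of −6.32 and −6.17 in WT at 26 dpp against −0.56 and 1.35 in WT at 17 dpp. Of 6 adipocyte markers 5 lay below 0 and 0 passed (median −0.70). The part of these cell types and tissues in the age differences of the matrix genes was not tested.

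In KO testes the same age comparison gave fewer calls, with KO replicate 2 of 26 dpp in the group. With all arrays 10 members fell and 1 rose, 22.4% of 49, where 15.6% of all genes passed, 7.93% downward and 7.63% upward. The median difference of the members was −1.17, against −0.31 over all genes, and both arrays of 26 dpp lay below both of 17 dpp in 38 members, 77.6% of them, against 37.7% of all genes. Without scaling between arrays 3 passed, 1 upward and 2 downward, and with array weights or with the 4 KO arrays alone 0 passed (6 and 21 at an unadjusted p under 0.05). An unadjusted p under 0.05 was reached by 34 members, where 34.5% of all genes reached it. Without KO replicate 2 at 26 dpp, 30 members fell and 6 rose, where 59.7% of all genes passed, 38.3% downward and 21.4% upward. That fit holds a single KO array of 26 dpp, which is assumed to vary like the arrays of the other groups. Without KO replicate 1 at 26 dpp 12 fell and 1 rose, where 19.1% of all genes passed. Without any one of the other 6 arrays 0 members passed, where 0% to 4.52% of all genes did, and 12 to 31 members had an unadjusted p under 0.05.

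Col2a1 was the gene that rose in KO. It read 2.30 and 1.32 in KO at 26 dpp against −0.73 and 0.01 in KO at 17 dpp, a difference of 2.17 (SE 0.41, adjusted p = 0.0275). Col18a1 fell with little spread, reading 2.26 and 2.29 in KO at 26 dpp against 4.04 and 3.62 in KO at 17 dpp (difference −1.55, adjusted p = 0.0234). Of the basement membrane chains, Lama1 fell by 1.73, Lama4 by 1.56, Lamc3 by 1.00 and Col4a2 by 1.39 on the log2 scale (adjusted p = 0.0257, 0.0341, 0.0417 and 0.0392). Of the fibrillar collagens, Col5a2 fell by 2.97, Col5a3 by 2.67 and Col5a1 by 1.30 (adjusted p = 0.039, 0.0301 and 0.0488). The fibril-associated Col14a1, which binds fibrils, fell by 1.89 (adjusted p = 0.0447), and Col15a1, which was not well above background on either KO array at 26 dpp, was lower by at least 1.99-fold (adjusted p = 0.0358). With median scaling the calls of Lamc3, Col4a2 and Col5a1 were lost. Without the filter on dim probes those of Lamc3, Col5a1 and Col14a1 were lost, and with another background correction that of Col15a1.

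The other chains show where the KO replicates of 26 dpp parted. Lamb1 read 2.75 and 4.27 in KO at 26 dpp against 5.13 and 4.85 in KO at 17 dpp (difference −1.49, adjusted p = 0.0918). Lama5 read 0.12 and 2.00 against 2.74 and 2.05. In both genes replicate 1 of 26 dpp lay far below the 17 dpp arrays and replicate 2 close to them. Without replicate 2 the difference was −2.25 for Lamb1 (adjusted p = 0.00158) and −2.27 for Lama5 (adjusted p = 0.00508), and all 6 collagen IV chains and 10 of 11 laminin chains fell. Lamb3 read −0.94 and −4.87 in KO at 26 dpp against −4.38 and −4.76 in KO at 17 dpp. Replicate 1 was high and replicate 2 was as low as at 17 dpp, with a difference of 1.67 with all arrays (adjusted p = 0.354) and 3.63 without replicate 2 (adjusted p = 0.00642).

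**Figure D3:**
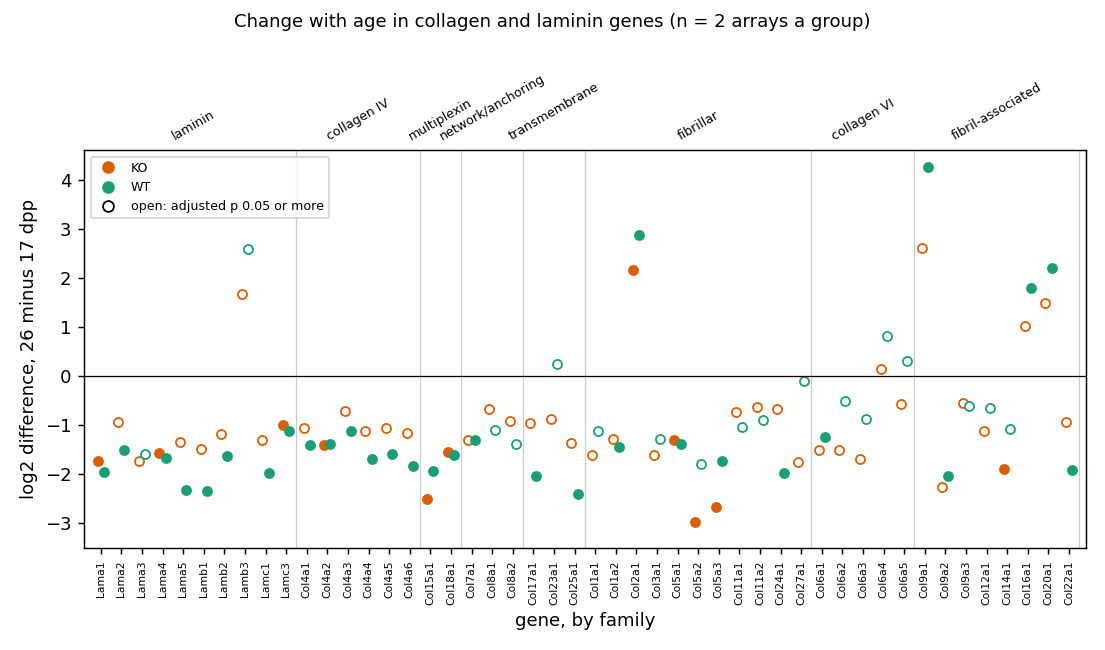
Log2 difference between 26 and 17 dpp (y axis) for 48 tested genes, grouped by family, in KO and in WT, from limma fits with 2 arrays a group. Filled points have an adjusted p under 0.05: 11 of the genes drawn in KO and 30 in WT.

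No collagen or laminin gene differed between KO and WT at 26 dpp by the test. The count was 0 of 49 in limma, where 0.00752% of all genes passed, and 2 members had an unadjusted p under 0.05, 4.08% of them, where 2.44% of all genes did. Those were Col24a1, at −3.03 and −2.0 in KO against −3.47 and −3.81 in WT (difference 1.12, SE 0.42, adjusted p = 0.533), and Col17a1, at −1.90 and −1.18 in KO against −2.72 and −2.18 in WT (difference 0.91, SE 0.37, adjusted p = 0.533). In both genes the KO arrays lay above the WT arrays. The member median was 0.05, against 0.09 over all genes, and single differences ran from −2.09 for Lamb3 to 1.12 for Col24a1. KO arrays lay wholly above WT arrays in 9 members and wholly below in 5, 18.4% and 10.2%, where 15.8% and 16.6% of all genes did.

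The families parted in KO replicate 2 of that age. Against the mean of the WT arrays of 26 dpp, this array had a median of 1.00 over the 11 laminin chains and 0.60 over the 6 collagen IV chains, but −0.89 over the 11 fibrillar collagens, −1.03 over the 5 collagen VI chains and −0.83 over the 8 fibril-associated collagens. Replicate 1 had medians of 0.11, 0.07, 0.09, 0.02 and −0.11 for the same families. For the 3 transmembrane, 3 network and anchoring and 2 multiplexin collagens, replicate 2 had medians of 1.27, −0.13 and −0.26. Replicate 1 had 0.31, −0.08 and 0.21 for these. Replicate 2 lay above the other 3 arrays of 26 dpp in 9 of 11 laminin and 5 of 6 collagen IV chains, and below them in 6 of 11 fibrillar collagens and 4 of 5 collagen VI chains. It also lay above them in 3 of 11 fibrillar collagens and below them in 1 of 11 laminin chains. Over all genes it lay above the other 3 in 51.1% and below them in 37.2%. With both KO arrays averaged, 10 of 11 laminin and 6 of 6 collagen IV chains were above WT (8 and 5 without scaling between arrays), none by the test.

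Col5a2 shows the fibrillar side, reading −1.82 and −3.80 in KO against −1.44 and −2.16 in WT at 26 dpp (difference −1.01, adjusted p = 0.533). Col3a1 read 4.70 and 3.49 in KO against 5.01 and 4.23 in WT, and Col1a1 5.19 and 4.21 against 5.59 and 4.6. Col27a1, a collagen of cartilage, read −2.14 and −4.53 in KO against −1.75 and −2.59 in WT, and Col6a5 −1.48 and −3.18 against −0.45 and −1.31. In each, replicate 2 was the lowest of the 4 arrays. On the basement membrane side Lamb1 read 2.75 and 4.27 in KO against 2.69 and 2.55 in WT, a difference of 0.89 with all arrays and 0.13 without replicate 2. Lama5 read 0.12 and 2.00 in KO against 0.28 and −0.03 in WT, a difference of 0.94. Col25a1, one of the transmembrane collagens, read −4.04 and −2.55 in KO against −4.43 and −4.28 in WT (difference 1.06), and Lamb3 −0.94 and −4.87 against −0.92 and −0.70 (difference −2.09).

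Summed marker signals of other cells also differed in this array. The summed Sertoli marker signal was 7.72 in replicate 1 and 8.82 in replicate 2 of KO, against 7.78 and 7.63 (log2) in WT at 26 dpp. The brightest Sertoli marker, at 7.31 and 8.46 against 7.39 and 7.25, makes up most of this sum. The median of the 10 Sertoli markers was 1.47 and 1.33 in KO against 1.48 and 1.29 in WT. The summed Leydig marker signal was 3.90 and −0.15 in KO, against 4.42 and 3.40 in WT. The summed peritubular myoid signal was 6.22 and 6.55 in KO against 6.39 and 6.22 in WT, while the myoid median was 1.40 and 0.40 against 1.52 and 1.36. Of 10 basement membrane partners 9 lay above 0 in KO at 26 dpp with all arrays (median 0.52) and 5 without replicate 2 (median 0.01). The part of these cell types, and of the array's distance from its age group, in the collagen and laminin values was not tested. Without replicate 2, 0 of 49 members passed and 0 had an unadjusted p under 0.05, where 0.0376% and 2.08% of all genes did, and the member median was 0.06. With replicate 2 as the only KO array of that age, 19 passed, 13 upward and 6 downward, where 45.5% of all genes passed.

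**Figure D4:**
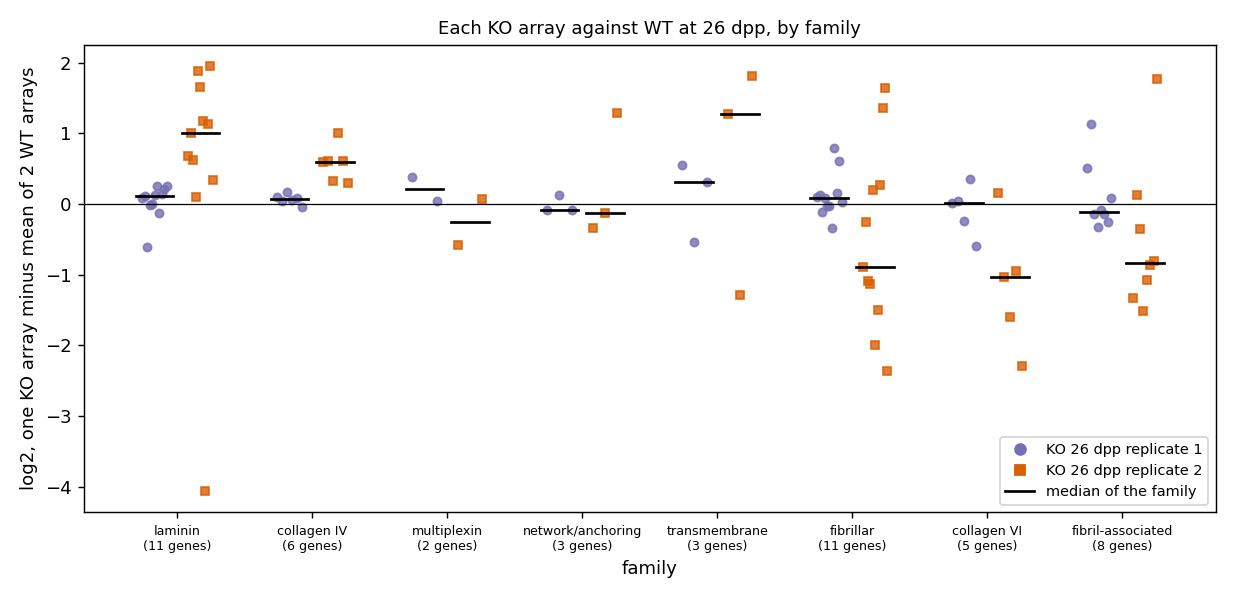
Log2 signal of each KO array of 26 dpp minus the mean of the 2 WT arrays of that age, with 1 point per gene and black lines at family medians. Replicate 1 lies near 0 in every family (medians −0.11 to 0.31). Replicate 2 has medians above 0 for transmembrane collagens (1.27), laminins (1.00) and collagen IV (0.60). Its medians lie below 0 for the other families, among them fibrillar collagens (−0.89) and collagen VI (−1.03).

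At 17 dpp the 2 genotypes gave close values. In limma 0 of 49 members passed, where 0.094% of all genes did, and 0 had an unadjusted p under 0.05, where 1.44% of all genes did. The member median was 0.01, against 0.02 over all genes. Of the 49 members 42 differed by less than 0.5 on the log2 scale, and the share of all genes that did was not computed. Lamb1 read 5.13 and 4.85 in KO against 4.95 and 4.96 in WT, and Lamc1 read 2.99 and 2.69 against 2.87 and 2.89. Col4a1 read 2.19 and 1.62 in KO against 1.82 and 1.96 in WT, and Col18a1 read 4.04 and 3.62 against 4.0 and 3.65. In all of these the genotypes overlapped. KO arrays lay wholly above WT arrays in 10 members and wholly below in 2, 20.4% and 4.08%, where 16.1% and 12.8% of all genes did.

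The largest differences at 17 dpp were 1.24 for Col9a1 and −1.18 for Lamb3. Col9a1 read −5.38 and −5.32 in KO against −7.86 and −5.32 in WT, so that 1 WT array carried the difference (SE 0.93, adjusted p = 1). Lamb3 read −4.38 and −4.76 in KO against −4.13 and −2.65 in WT (SE 1.23, adjusted p = 1), again with the WT replicates far apart. Differences were also seen in Col9a2 at 0.83, Col6a5 at −0.57, Col4a6 at −0.54, Col6a2 at 0.50 and Col11a2 at 0.50, each with an adjusted p of 1. Col4a6 read 0.58 and 0.13 in KO against 0.55 and 1.23 in WT. In Lamb3 and Col4a6 WT replicate 2 was the highest of the 4 arrays. This array also had the highest markers of other tissues. The median of 6 adipocyte markers was −2.63 and −3.41 in KO against −1.22 and 3.22 in WT at 17 dpp, and that of 8 epididymis markers was −7.40 and −7.21 in KO against −0.56 and 1.35 in WT. Of the epididymis markers 3 of 8 were well above background in each KO array and all 8 in each WT array. The part of such tissue in the collagen and laminin values of WT was not tested. Without WT replicate 2 at 17 dpp the member median was 0.18, and 0 members passed, with 1 at an unadjusted p under 0.05.

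The effect of the knockout was also compared between the ages. For 0 of 49 members did the difference of the KO effects pass in limma, where 0% of all genes did, and 0 had an unadjusted p under 0.05, where 1.9% of all genes did. The differences, 26 minus 17 dpp, were −1.65 for Col9a1 and 1.30 for Col24a1, and the adjusted p was 0.781 or above in each member. Without KO replicate 2 at 26 dpp 0 members passed, where 0.00752% of all genes did, and with it as the only KO array of its age 9 passed, where 32.8% of all genes did.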

How the data were processed

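Whole testis RNA was measured on 8 one-colour Agilent arrays (4 groups of 2). Per the file headers, the authors read the spots with Feature Extraction 11.5.1.1, the tool also named in the submitters' processing notes, and deposited linear intensity values and flags, with the processed signal corrected for background and spatial trend but not scaled between arrays. The authors' deposited series values are log2 values whose scale and centring are not stated. Each column correlated at 0.999906 to 0.999946 with log2 of the same array's processed signal and lay 0.131 to 0.213 above the values used here, with no centring per gene. Its medians were −3.62 and −3.84 in KO and −3.59 and −3.64 in WT at 26 dpp, and −3.67 and −3.63 in KO and −3.69 and −3.69 in WT at 17 dpp. It served as an alternative.

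Outlier spots were left out, spots of a probe averaged, and log2 signal taken minus the array's 75th percentile. Probes had to clear background in both replicates of some group, which left 37810 of 55681 probes and 26586 genes. Accessions were renamed through RefSeq tables (GRCm38.p6), which also gave the promoter windows, matched for 40 of 54 members. Limma 3.58.1 (R 4.3.3, with the data.table package, version 1.17.8) fitted 1 mean per group over all 8 arrays with empirical Bayes moderation (4 residual and 2.06 prior degrees of freedom), two-sided, with Benjamini-Hochberg adjustment over all genes tested, for 5 comparisons. The fit was tested on simulated data. Where no array of a group cleared background, the fold is a lower bound ("at least"): in the dim group each array's value was raised to the faintest signal that array still called well above background, or kept where already higher, before the means were compared. The number of arrays limits the precision, and no spot was saturated (0 on each array). Per array, 58.8% to 64.7% of probes cleared background.

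The members and the lists were chosen with earlier results of these data known. Named are the tested laminin and collagen IV chains, Col1a1, Col1a2, Col3a1, each member called, the 8 tested members with the largest difference in each comparison, Ip6k1, and, of each other list, called genes and at most 4 with the largest difference. P3h1, Col6a3, Col6a4, Col8a1, Col8a2, Col9a3, Col12a1 and Col23a1 were named after their values were seen. One further gene counted among the members is not reported here. Alternatives were other scalings, background correction, dim filters, probe averaging, a replicate block, a variance trend, array weights, fewer arrays and the deposited table.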

Additional observations from a re-analysis of the deposited data

How the results depend on the processing

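No named member reversed a called direction in any of the alternatives run. In WT with age, 31 members passed with all arrays, 21 to 41 under the alternatives that keep every array of the groups compared, and 0 to 40 when 1 array was left out. In KO with age, 11 passed, against 3 without scaling between arrays, 0 with array weights, 0 from the 4 KO arrays alone (6 and 21 at an unadjusted p under 0.05) and 0 to 36 when 1 array was left out. Between genotypes 0 passed at either age and in the difference of the effects, under each alternative that keeps every array of the groups compared (0 to 2, 0 to 3 and 0 to 1 at an unadjusted p under 0.05). Leaving out 1 array gave 0 at 17 dpp, 0 to 19 at 26 dpp and 0 to 9 for the difference, the upper counts without KO replicate 1 at 26 dpp. The member median in WT with age was −1.38, and −1.01 without scaling, where the all-gene median was −0.10 (−0.46 with scaling); relative to all genes it was −0.92 in both. With median scaling the all-gene medians were −0.59 in WT with age and 0.23 for KO against WT at 26 dpp, and the member medians −1.50 and 0.20; without scaling KO against WT at 26 dpp had a member median of −0.13. Leaving out 1 array gave member medians of −1.66 to −1.11 in WT with age, −1.39 to −0.95 in KO with age, −0.094 to 0.355 for KO against WT at 26 dpp and −0.13 to 0.20 at 17 dpp. The replicate numbers do not pair the samples: deviations of same-numbered arrays correlated at −0.40 to 0.11. With the replicate number as a block 26 members passed in WT with age, 0 in KO with age (34 at an unadjusted p under 0.05) and 0 in each other comparison. The difference of the effects uses all arrays, so it has no fit on fewer groups.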
